A study of Mus musculus with 26 samples.

Results

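Gene expression in the left lung was compared between Il10+/+ mice that inhaled ozone (O3) for 48 hr and Il10+/+ mice that breathed filtered air. The comparison rests on 7 of the 26 arrays of the series: 3 arrays of the 48 hr O3 group (a concentration of 0.3 ppm), 2 of the 24 hr air group and 2 of the 48 hr air group. They were chosen by their labels for genotype, agent and exposure time alone. All 7 come from male C57BL/6 mice of 6 to 8 weeks from the same supplier, with a functional Il10 gene and no other allele named, and chambers ran 23.5 hr/day. The rest of the series holds Il10+/+ mice after 24 and 72 hr of O3 and Il10-/- mice, which lack the anti-inflammatory cytokine IL-10, in air and after 24, 48 and 72 hr of O3. The air arrays of both durations were pooled, so the duration of confinement differed within the control group. Each array was hybridized with RNA from whole lung tissue, and the labels do not name the animal behind an array, although the study's methods speak of 1 array as a sample from a mouse. P-values rest on the spread within 8 groups over 25 arrays of the series, not on these 7 arrays alone. Part of that spread may be technical.

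Ozone is an oxidant gas that reacts with the fluid lining the airways and injures epithelial cells, above all ciliated cells of the small airways and the flat type 1 cells of the alveolus where bronchioles end. Surviving progenitors, the club cells of the airway and type 2 cells of the alveolus, divide and cover the damaged surface while an inflammatory exudate forms. Dividing cells follow a program in successive waves. Genes of DNA synthesis are induced when E2F factors are released from the retinoblastoma family. Genes of mitosis come on later. They are controlled by the DREAM and MuvB complexes, which bind a promoter element called CHR.

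After 48 hr of O3, 336 genes were higher and 124 were lower than in air at a Benjamini-Hochberg adjusted p under 0.05 from limma. These were 2.71 and 1.0% of the 12394 genes measured. The changes upward were the larger. Of the higher genes, 96 rose over 2-fold and 13 over 4-fold, with a median log2 change of 0.74 and a largest of 3.60. Of the lower genes, 3 fell over 2-fold, with a median of -0.50 and a largest change of -1.57. The median change of all genes was -0.026 and the median standard error 0.125, both on the log2 scale. On 330 of the 336 and 123 of the 124, the 3 O3 arrays did not overlap the 4 air arrays. Among all genes, 1106 (8.92%) had every O3 array above every air array and 1069 (8.63%) had every one below, so a lack of overlap alone is common at this number of arrays. An unadjusted p under 0.05 was reached by 2035 genes.

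**Figure D1:**
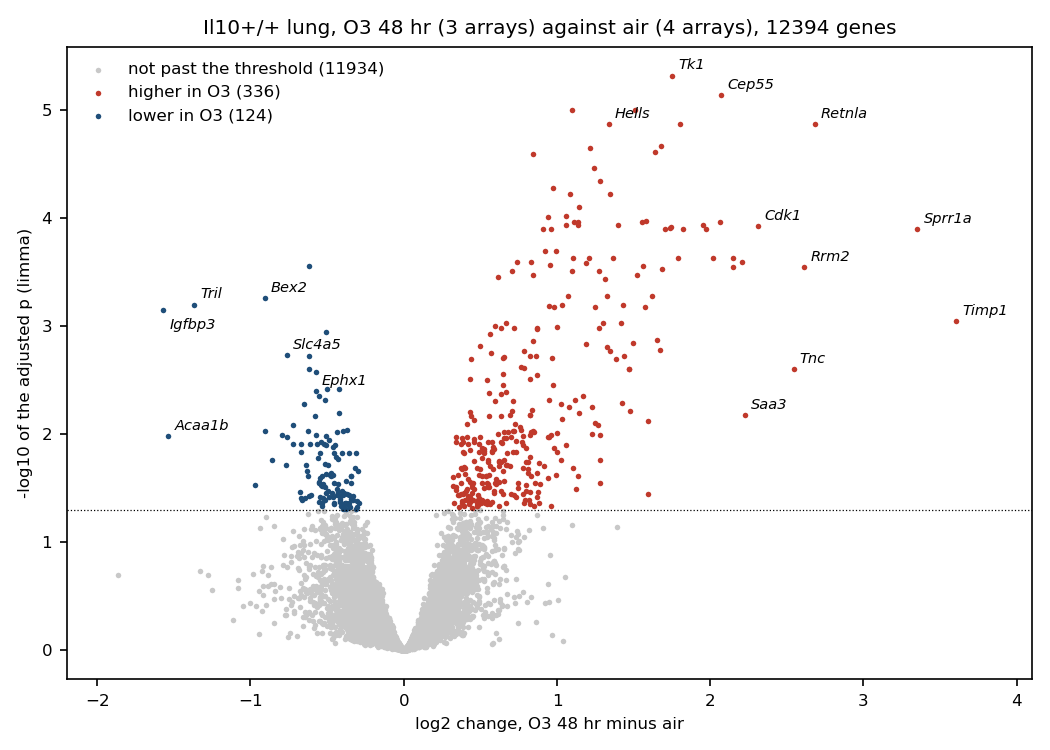
Each point is 1 of 12394 genes, with the log2 change after 48 hr of O3 against air on the x axis and -log10 of limma's adjusted p on the y axis; the dotted line marks 0.05. The 336 genes that rose reach 3.60 (Timp1), and the 124 that fell reach -1.57 (Igfbp3).

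These counts depended on single arrays. They ranged from 148 to 331 higher and from 23 to 108 lower when each of the 7 arrays was left out in turn, and 143 of the 460 genes passed every time. Counts fell by over 1.5 times without O3 48 hr replicate 3 (148 higher, 23 lower), replicate 2 (222 and 59) or air 24 hr replicate 1 (212 and 54). The fit spans 25 arrays and leaves out 1 array of Il10-/- mice at 24 hr of O3 (replicate 2), whose correlation with the other arrays lay between 0.847 and 0.879. With that array in the fit 6 genes passed, all higher: Cep55, Ctps, Ereg, Pgk1, Ssx2ip and Tgfbi. A fit of the 7 arrays alone called 335 higher and 105 lower, of which 320 were among the 460. For genes described below that lost the call against air, the number of arrays whose removal lost it is given where it is over 1, with the highest adjusted p and the array that gave it.

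The largest group of genes that rose was that of cell division. Of 114 measured genes in 4 lists (cyclins and mitotic kinases, DNA replication, mitosis, and histone chaperones with chromatin assembly), 74 rose and none fell. In mitosis and chromosome segregation 28 of 35 rose, with a median log2 change of 1.10. In DNA replication 25 of 34 rose (median 0.74), in chromatin assembly 9 of 15 (median 0.56), and among cyclins and mitotic kinases 12 of 30 (median 0.32). Without O3 48 hr replicate 3 these counts were 20, 18, 7 and 8. Against air of 24 hr alone they were 23, 14, 5 and 8.

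The promoters of 4 of these genes are shown because their elements differ by the phase in which the gene acts. Each line gives the 250 bases before the annotated start, 5′ to 3′ on the gene's strand, from RefSeq on GRCm38.p6. Capitals mark the CHR element (TTTGAA), the E2F forms TTTGGCGC, TTTCCCGC, TTTCGCGC and TTTGCCGC, and the CCAAT box, each on either strand. Cdk1 lies at chr10:69352913-69353162, Mki67 at chr7:135716380-135716629 and Top2a at chr11:99024190-99024439, all on the minus strand. Mcm5 lies at chr8:75109259-75109508 on the plus strand.
Cdk1: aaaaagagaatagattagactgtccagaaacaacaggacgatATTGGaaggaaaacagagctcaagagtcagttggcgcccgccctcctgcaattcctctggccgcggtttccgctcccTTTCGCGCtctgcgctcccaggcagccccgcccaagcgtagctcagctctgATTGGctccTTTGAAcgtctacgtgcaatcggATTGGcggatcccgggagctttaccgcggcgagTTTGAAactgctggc
Mki67: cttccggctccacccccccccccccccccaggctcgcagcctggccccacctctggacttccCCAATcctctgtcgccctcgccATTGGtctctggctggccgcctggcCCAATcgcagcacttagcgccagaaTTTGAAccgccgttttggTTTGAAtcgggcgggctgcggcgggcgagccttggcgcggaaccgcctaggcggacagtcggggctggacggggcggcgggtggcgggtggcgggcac
Top2a: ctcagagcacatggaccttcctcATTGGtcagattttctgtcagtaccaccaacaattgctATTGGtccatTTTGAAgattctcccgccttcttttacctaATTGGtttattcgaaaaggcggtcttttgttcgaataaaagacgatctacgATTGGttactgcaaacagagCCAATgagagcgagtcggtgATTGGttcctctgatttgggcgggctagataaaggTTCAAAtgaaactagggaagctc
Mcm5: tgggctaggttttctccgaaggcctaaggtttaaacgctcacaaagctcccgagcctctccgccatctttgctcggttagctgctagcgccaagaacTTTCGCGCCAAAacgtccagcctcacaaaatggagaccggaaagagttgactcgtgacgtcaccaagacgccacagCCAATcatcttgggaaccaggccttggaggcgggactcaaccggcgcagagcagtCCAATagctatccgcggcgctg

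Cdk1, Mki67 and Top2a each hold 2 CHR elements and several CCAAT boxes in this window. Cdk1 has in addition an E2F form that begins 131 bases before its start. Mcm5 holds no CHR letters and has 2 E2F forms that overlap, beginning 153 and 149 bases before its start. Over windows of 300 bases (50 after the start included), available for 9888 of the genes measured, CHR letters occurred in 1284 (13%) and the E2F forms in 353 (3.57%). CHR letters occurred in 20 of 25 mitosis genes that rose (80.0%), in 7 of 9 cyclins and mitotic kinases (77.8%) and in 1 of 21 replication genes (4.76%). The E2F forms occurred in 8 of those 21 replication genes (38.1%) and in 2 of the 25 mitosis genes (8.0%). CCAAT occurred in 72.0, 88.9 and 52.4% of the mitosis, cyclin and replication genes and in 38.1% of all windows. Among all genes that rose, 22.8% held CHR letters, and among those that fell 6.32%. These matches are descriptions of letters, carry no test and show no binding.

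Cdk1 (chromosome 10), the kinase that drives entry into mitosis, had log2 values of 5.43, 6.08, 5.83 and 5.91 on the air arrays and of 7.71, 8.07 and 8.60 after 48 hr of O3. The groups did not overlap, and O3 48 hr replicate 3 was the highest. The gene rose by 2.31 (standard error 0.31, adjusted p = 0.000118), a 4.97-fold change. Its partner Ccna2 (cyclin A2) rose by 1.95 and Ccnb2 (cyclin B2) by 1.65. Aurka, the kinase of the spindle pole, lay between 4.62 and 5.06 in air and rose by 1.55 (standard error 0.21, adjusted p = 0.000109). The checkpoint kinase Bub1, the centriole kinase Plk4, Plk1 and Aurkb rose as well, by 1.51 down to 1.09. The changes of Ccne2 (0.81), Bub1b (0.71), E2f8 (0.59) and Ttk (0.49) passed over all arrays but not without O3 48 hr replicate 3, and E2f8 was lost without any of 6 arrays (adjusted p up to 0.143, without replicate 2). Ccne2 and Bub1b were lost without either of 2 arrays and Ttk without any of 3, with the highest adjusted p (0.188, 0.147 and 0.163) without replicate 3. The D-type cyclins and the inhibitors were apart from this group. Ccnd1 had a change of 0.17 (adjusted p = 0.656), Cdkn1a (p21) one of 0.11 (adjusted p = 0.825), and neither Ccnd2 nor Ccnd3 passed.

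Mki67, which encodes the proliferation antigen Ki-67, lay between 6.53 and 7.01 in air and at 8.33, 8.78 and 9.58 after O3. It rose by 2.15 (standard error 0.31, adjusted p = 0.000231). Birc5 (survivin), a subunit of the chromosomal passenger complex, rose by 2.15, Top2a, which untangles DNA before segregation, by 1.97, and Anln, the anillin of the cleavage furrow, by 1.80. Cep55, which acts at the final cut between daughter cells, had values of 4.17 to 4.73 in air and of 6.44, 6.58 and 6.69 after O3. Its change of 2.07 (standard error 0.20, adjusted p = 7.27e-06) was among the 6 that held with all 26 arrays. Of the second probe sets, that of Top2a moved by 0.01 and that of Cep55 by 0.34, and neither passed. Pbk, a mitotic kinase, rose by 2.02. The 7 mitosis genes that did not pass were Ube2c (1.39, adjusted p = 0.0727), Kif22, Cenpa, Ncaph, Smc4, Cenpe and Pttg1.

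In DNA replication, Rrm2, the regulated subunit of ribonucleotide reductase, rose most. It lay between 5.58 and 6.17 in air and at 8.18, 8.46 and 8.74 after O3, a change of 2.61 (standard error 0.39, adjusted p = 0.000284) or 6.12-fold. All 3 of its probe sets passed, with changes from 1.71 to 2.61. Tk1, thymidine kinase, had the lowest adjusted p of all genes. It went from 5.09 to 5.48 in air to 6.88, 6.86 and 7.09, a change of 1.75 (standard error 0.16, adjusted p = 4.8e-06). Mcm5, part of the replicative helicase, had nearly equal values on the 3 O3 arrays (7.96, 7.91 and 7.94) against 6.07 to 6.33 in air and rose by 1.71 (standard error 0.23, adjusted p = 0.000127). Cdc6, which loads that helicase, rose by 1.14. Mcm7 rose by 0.84, Mcm4 by 0.83 and Mcm3 by 0.72. Mcm3 was lost without O3 48 hr replicate 2 or replicate 3 (adjusted p up to 0.0734 for the latter). Mcm6 (0.96, adjusted p = 0.131) did not pass. All 34 members of the list had a change above 0, as did 5414 of all 12394 genes.

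Among genes of chromatin assembly, Uhrf1, which recruits DNA methylation to new strands, rose by 2.06 (standard error 0.27, adjusted p = 0.000109). Hells, a remodeler that works with it, lay between 4.57 and 4.70 in air and at 5.91, 5.76 and 6.24 after O3 and rose by 1.34 (standard error 0.14, adjusted p = 1.34e-05). The histone chaperone Asf1b rose by 1.00 and the methyltransferase Ezh2 by 0.87. Hat1, the enzyme that acetylates new histone H4, had values of 7.27, 7.44, 7.53 and 7.44 in air and of 8.02, 8.25 and 8.53 after O3. The groups did not overlap and the change was 0.85 (standard error 0.13, adjusted p = 0.000338).
Of the p53 targets and DNA damage genes, 3 of 18 rose and 1 fell, with a list median of 0.02. The DNA repair gene Brca1 rose by 1.10 on the probe set used, while 1 of its 4 probe sets went the other way, at -0.13. Gadd45g rose by 0.83, the checkpoint kinase Chek1 by 0.55 and Sesn1 fell by 0.56. Chek1 lost the call without any of 3 arrays (adjusted p up to 0.121, without O3 48 hr replicate 2) and Sesn1 without any of 6 (up to 0.188, without replicate 3).

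The cell division genes separated 48 hr from 24 hr of O3 in the same genotype. Between those O3 arrays 101 genes were higher at 48 hr (0.815% of all genes) and 9 were lower (0.0726%), and 61 of the 101 were in the 4 lists. In mitosis 27 of 35 genes were higher at 48 than at 24 hr, in replication 17 of 34, among cyclins and kinases 11 of 30 and in chromatin assembly 6 of 15. Cdk1 stood at 5.72, 6.28 and 5.62 after 24 hr of O3, overlapping the air values, and at 8.53, 8.38 and 8.68 after 72 hr. It was higher at 48 than at 24 hr by 2.25 (adjusted p = 0.00058). For mitosis genes the median change against air was -0.10 at 24 hr, 1.10 at 48 hr and 1.38 at 72 hr. These 3 values share the air arrays. Of the 110 genes called between 48 and 24 hr, 59 passed without O3 48 hr replicate 3, 65 without O3 24 hr replicate 1 and 69 without O3 24 hr replicate 3. No acute phase, sterol, ribosome biogenesis or metallothionein gene was called between 48 and 24 hr.

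Of the 40 higher genes outside the 4 lists, the largest were Pbk (2.32) and Cep55 (2.23), both described above, and others of the 40 act in cell division too. Among those with other roles were the epidermal calcium-binding protein S100a14 (1.23), the matrix proteoglycan Vcan (1.15), the protease Ctsk (1.14), Tnfsf9 (0.92), Tgfbi (0.78), the growth factor Ereg (0.73), the fungal receptor Clec7a (0.63) and Krt8 (0.61). The 9 lower ones were Fxyd1, Cldn15, Ccrl2, Lims2, Tmem38a, Zkscan14, Ephx1, Smim27 and Hyal2, with changes from -0.64 to -0.40. These and the 9 lower genes were named after their values were seen. Between 72 and 48 hr limma called 0 genes (lowest adjusted p = 0.136), with 204 at an unadjusted p under 0.05. A lack of calls does not show that the levels at these times were equal. An ordinary analysis of variance at an unadjusted p of 0.01 gave 43.

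**Figure D2:**
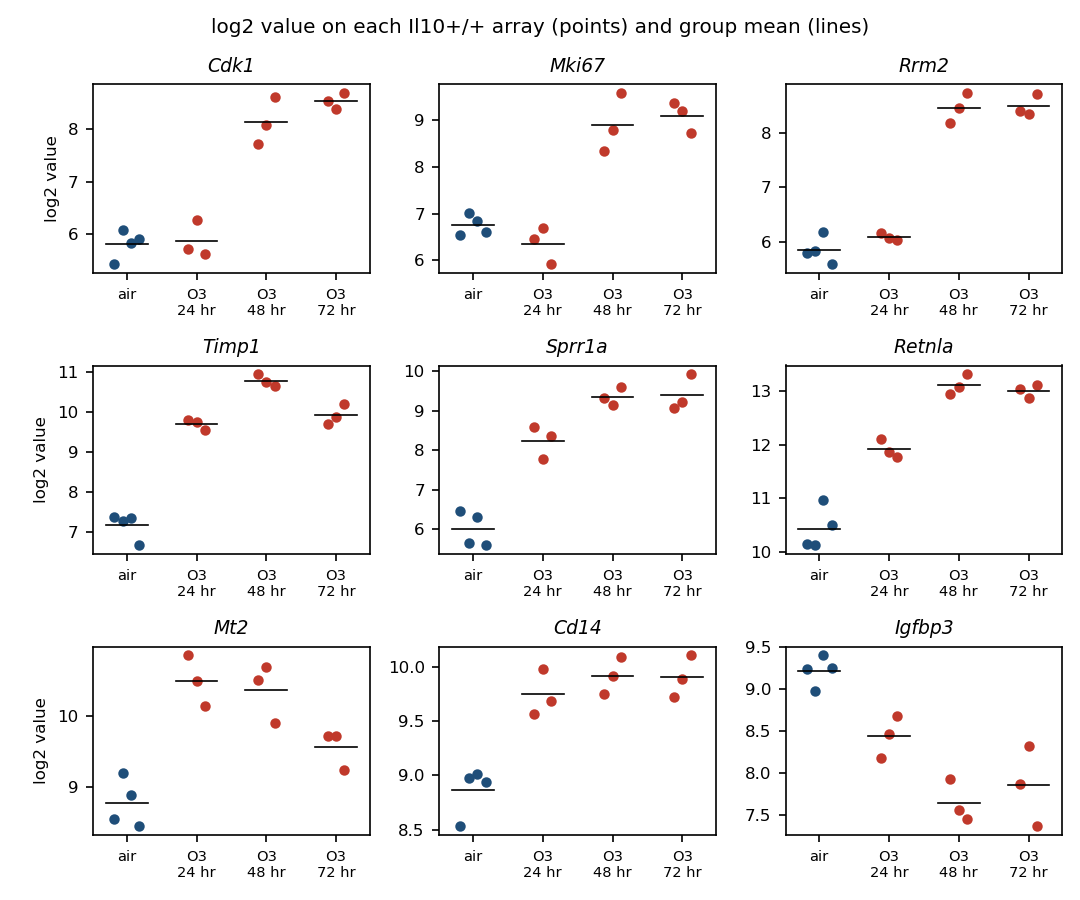
The log2 value of 9 genes on each Il10+/+ array is plotted against exposure (4 air arrays, 3 O3 arrays at each time), with a line at each group mean and a scale of its own in each panel. Cdk1, Mki67 and Rrm2 are near the air level at 24 hr and high at 48 and 72 hr. Mt2, Cd14, Timp1 and Sprr1a are already above all air arrays at 24 hr. Of these only Cd14 passed limma's threshold against air at that time (adjusted p = 0.0206). The adjusted p was 0.0578 for Mt2, 0.094 for Sprr1a and 0.194 for Timp1. The share of all genes without overlap at 24 hr was not counted.

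Genes of the cornified envelope and of simple epithelium were also among those that rose. Of 37 keratin and cornified envelope genes, 8 rose and none fell, with a median of 0.10, so the list as a whole stayed near the level of all genes. Sprr1a, a cross-linked protein of the cornified envelope, had values of 6.46, 5.66, 6.32 and 5.59 in air and of 9.32, 9.15 and 9.61 after O3. It rose by 3.35 (standard error 0.46, adjusted p = 0.000127), a 10.2-fold change, and Tgm1, the transglutaminase that cross-links such proteins, rose by 1.67 (adjusted p = 0.00167). S100a14 rose by 1.79 (standard error 0.26, adjusted p = 0.000231), with 7.34, 7.22 and 8.11 against 5.57 to 5.90 in air. Krt8, a keratin of simple epithelium, lay between 10.95 and 11.41 in air and at 12.15, 11.94 and 12.20 after O3 and rose by 0.98 (standard error 0.12, adjusted p = 5.24e-05). All 3 of its probe sets passed. Its partner Krt18 rose by 0.95, Krt19 by 0.84 and Krt7 by 0.46. Keratins of stratified and basal cells did not pass (Krt5 -0.14, Krt14 0.19, Krt6a -0.10). Without O3 48 hr replicate 3, 5 members of the list passed, and the adjusted p was 0.0629 for Krt19 and 0.153 for Krt7. Krt7 was lost without air 24 hr replicate 1 as well.

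Among proteases, their inhibitors and clotting genes, 7 of 37 rose and 2 fell (median 0.05). Timp1 (chromosome X), which inhibits matrix metalloproteinases, changed most of all genes. Its values were 7.38, 7.26, 7.35 and 6.66 in air and 10.94, 10.73 and 10.63 after O3. No array of either group came near the other, and the change was 3.60 (standard error 0.60, adjusted p = 0.000903), or 12.2-fold. Thbs1, which activates TGF-beta, rose by 1.74, F3 (tissue factor), the trigger of clotting, by 1.58, and Tfpi2, a serine protease inhibitor, by 1.48. The macrophage elastase Mmp12 rose by 1.28 and lost the call without any of 3 arrays (adjusted p up to 0.101, without O3 48 hr replicate 1), and the aggrecanase Adamts4 rose by 0.88 and lost it without any of the 7 (up to 0.168, without replicate 2). For F3 the values were 7.05 to 7.34 in air and 8.86, 8.84 and 8.67 after O3. Thbd (thrombomodulin), the anticoagulant receptor of endothelium, fell by 0.37 and Timp2 by 0.31. Thbd lost the call without any of the 7 arrays (adjusted p up to 0.162, without O3 48 hr replicate 2) and Timp2 without replicate 1 (0.0789) or replicate 3 of O3 48 hr. Of 32 matrix genes 2 rose and none fell (median -0.13). These were Tnc (tenascin C), a matrix protein of wounds, by 2.54 (standard error 0.47, adjusted p = 0.0025) and Ccn1, an immediate early matrix protein, by 1.32. The fibrillar collagens were not among them (Col1a1 -0.30, Col1a2 -0.23, Col3a1 -0.01).

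Retnla (RELM-alpha), a secreted protein of lung epithelium and of alternatively activated macrophages, had values of 10.15, 10.12, 10.97 and 10.50 in air and of 12.95, 13.08 and 13.32 after O3. It rose by 2.68 (standard error 0.29, adjusted p = 1.34e-05). It was 1 of 2 genes that rose in the list of alternative macrophage activation (17 measured, median 0.32), with the chemokine Ccl17. Arg1 (0.40), Chil3 (0.20) and Mrc1 (0.24) did not pass. Slc26a4 (pendrin), an anion exchanger of airway epithelium, rose by 2.21 (standard error 0.32, adjusted p = 0.000254), with 8.04, 7.66 and 8.17 against 5.55 to 6.08.

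**Figure D3:**
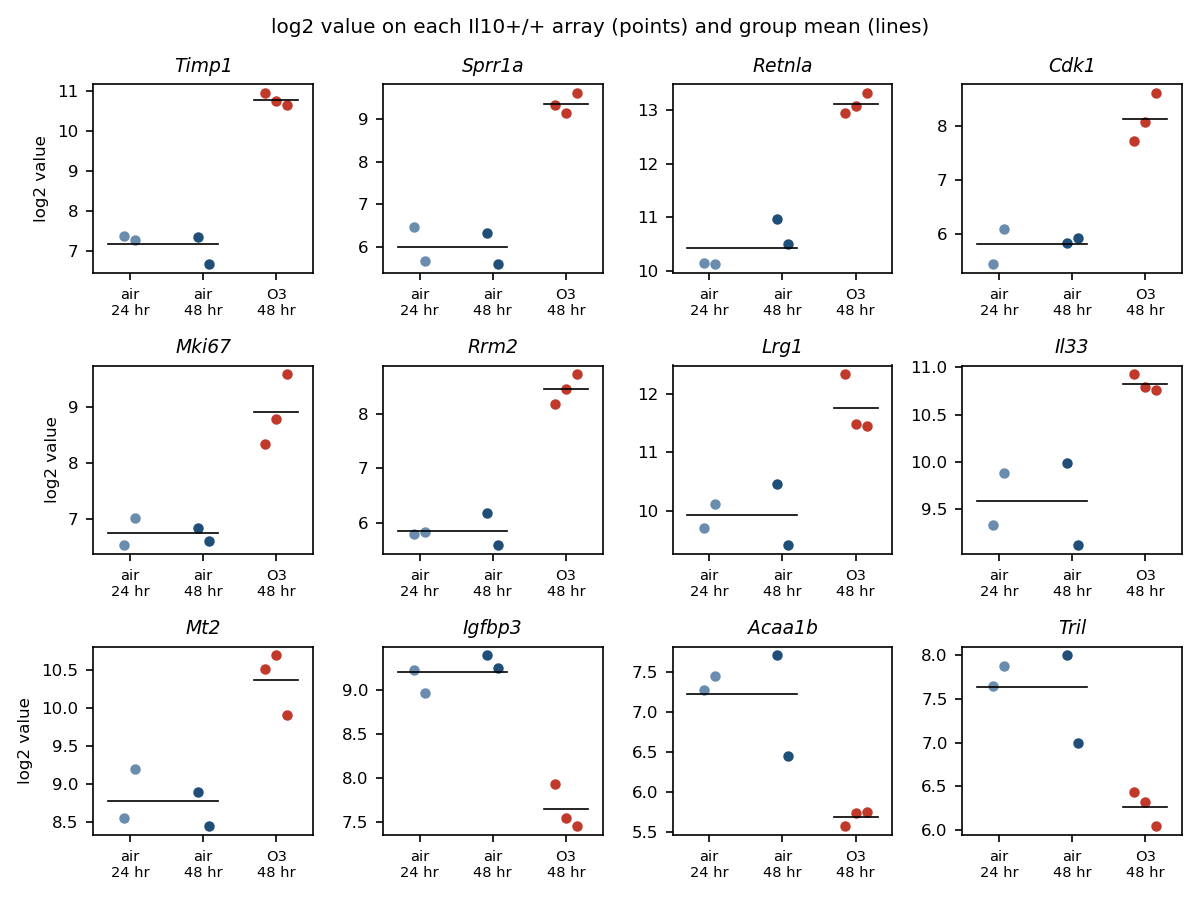
The log2 value of 12 genes is shown on each of the 7 arrays (2 of air 24 hr, 2 of air 48 hr, 3 of O3 48 hr), with a line at the mean of the 4 air arrays and of the 3 O3 arrays and a scale of its own in each panel. In all 12 panels every O3 array lies on 1 side of every air array. For all but Lrg1, Il33 and Mt2 this follows from the choice of genes, which took the largest calls without overlap.

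Of 30 acute phase genes and STAT3 targets, 11 rose and none fell, with a median change of 0.38. Saa3, a serum amyloid made in the lung, had values of 6.43, 5.88, 6.13 and 5.58 in air and of 8.08, 8.17 and 8.45 after O3. It rose by 2.23 (standard error 0.46, adjusted p = 0.00667), and without O3 48 hr replicate 3 the adjusted p was 0.0502. Lrg1, a secreted glycoprotein, rose by 1.82 (standard error 0.25, adjusted p = 0.000127), highest on O3 48 hr replicate 1 (12.33, against 11.48 and 11.45). Itih4 rose by 1.42 and Lcn2, an iron-sequestering protein of epithelium and neutrophils, by 1.33. Socs3, the feedback inhibitor of STAT3 signaling, had a spread of 7.99 to 9.31 in air and values of 10.15, 10.09 and 9.76 after O3. It rose by 1.42 (standard error 0.24, adjusted p = 0.000926), and all 3 of its probe sets passed. The change of Stat3 itself was 0.16 (standard error 0.17, adjusted p = 0.686), with overlapping groups. Haptoglobin (Hp) rose by 0.42 and Pigr, which carries IgA across epithelium, by 1.28, and without O3 48 hr replicate 3 their adjusted p-values were 0.12 and 0.0693. The count of the list was 6 without that array.

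Cytokines changed in few members. Of 41 cytokine and receptor genes 5 rose and none fell, with a median of 0.05. Il33, an alarmin stored in nuclei of lung epithelium, had values of 9.33, 9.88, 9.99 and 9.11 in air and of 10.93, 10.79 and 10.76 after O3. It rose by 1.25 (standard error 0.20, adjusted p = 0.00066). Tnfrsf12a, the receptor of TWEAK, rose by 1.23 and Ereg, a ligand of the EGF receptor, by 1.11 (5.50, 5.58 and 5.39 against 4.23 to 4.58). Il6 lay between 3.89 and 4.43 in air and at 5.25, 4.85 and 4.87 after O3, all below the array medians (6.54 to 6.68). It rose by 0.89 (standard error 0.23, adjusted p = 0.029), and lost the call without any of 6 of the 7 arrays, with the highest adjusted p at 0.135 (without O3 48 hr replicate 1). The list count was 3 without any of 5 arrays (both of air 24 hr and all 3 of O3 48 hr).

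The classical inflammatory cytokines overlapped between the groups. Il1b had values of 6.64, 7.12, 7.22 and 7.60 in air and of 7.89, 7.37 and 7.40 after O3 (change 0.41, standard error 0.26, adjusted p = 0.468). The change of Il1rn was 0.37 (adjusted p = 0.489). Changes of Tnf (0.01), Il1a (-0.01), Nos2 (0.02) and Il10 (0.05) were within 0.1 of 0, with adjusted p-values of 0.962 to 0.982. These genes lay below the array medians (6.54 to 6.68) in both groups, where a probe set may miss a change. The lowest value on any array was 3.22. The study itself reports that TNF-alpha and iNOS mRNA rose in both strains during O3. Il10 lay at 3.92 to 4.25 in air and at 4.08, 4.08 and 4.21 after O3. The standard error of its change was 0.40, from a spread that includes the Il10-/- arrays. The costimulatory gene Cd86 had a change of 0.12 (adjusted p = 0.797).

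No neutrophil chemokine passed out of 9 (median 0.09), and 1 had an unadjusted p under 0.05. Cxcl2, which encodes MIP-2, was at 4.13, 4.14, 4.18 and 4.19 in air and at 4.41, 4.54 and 4.47 after O3. The arrays did not overlap, yet the change of 0.31 (standard error 0.10) had an adjusted p of 0.0956. Cxcl2 too lay below the array medians, where a probe set may miss a change. The study reports that O3 raised MIP-2 protein in lavage fluid of both genotypes, which is a different measure. Cxcl5 had a change of 0.49 (adjusted p = 0.317) and Cxcl1 of 0.27 (adjusted p = 0.658). Of 27 other chemokines and receptors 3 rose. Ccl17, a ligand of CCR4 on T helper 2 cells, rose by 1.74 (8.92, 9.27 and 8.77 against 6.79 to 7.56, standard error 0.24, adjusted p = 0.000123), the receptor Ccr1 by 0.95 and the monocyte attractant Ccl2 by 0.87. A second probe set of Ccr1 had a change of -0.04. Ccl2 lost the call without any of 6 arrays, with adjusted p up to 0.145 (without O3 48 hr replicate 2). Of 31 innate receptors and NF-kappaB targets 3 rose, namely Cd14, a coreceptor of TLR4, by 1.06 (standard error 0.14, adjusted p = 0.000115), Clec7a by 0.77 and the adaptor Myd88 by 0.49. Cd14 was at 8.53, 8.98, 9.01 and 8.94 in air and at 9.75, 9.92 and 10.09 after O3. Myd88 lost the call without O3 48 hr replicate 3 (adjusted p = 0.12) or replicate 1 (adjusted p = 0.0519).

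Interferon-stimulated genes (27), MHC class II with costimulation (15) and complement (14) had no call in either direction, and 5, 1 and 2 of them reached an unadjusted p under 0.05. Their medians were -0.13, -0.11 and 0.06. For Rsad2, an antiviral enzyme, the change was -0.80 (adjusted p = 0.329), and for the class II chain H2-Aa it was -0.24 (adjusted p = 0.559).

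Antioxidant genes and NRF2 targets moved in part. Of 29, 6 rose and none fell, with a median of 0.14. Akr1b8, an aldo-keto reductase, rose most and kept the call without each array in turn. Its values were 7.91, 8.25, 8.31 and 7.81 in air and 9.48, 9.41 and 9.06 after O3, a change of 1.24 (standard error 0.15, adjusted p = 3.42e-05). Txnrd1 (thioredoxin reductase) rose by 0.50 (adjusted p = 0.00151), on 1 of its 3 probe sets. Gclc, the rate-limiting enzyme of glutathione synthesis, rose by 0.75 and the mitochondrial Sod2 by 0.52. Gclc lost the call without any of 5 arrays (adjusted p up to 0.116, without O3 48 hr replicate 1), and Sod2 had one of 0.0507 to 0.0589 without air 24 hr replicate 1, O3 48 hr replicate 1 or replicate 2. Without air 24 hr replicate 1 the list count was 2. The familiar NRF2 targets Hmox1 (0.35, adjusted p = 0.145) and Nqo1 (-0.16, adjusted p = 0.72) did not pass.

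Of 12 metallothionein and metal transport genes 4 rose. Mt2, a zinc-binding metallothionein, was at 8.55, 9.20, 8.89 and 8.44 in air and at 10.51, 10.69 and 9.90 after O3. It rose by 1.59 (standard error 0.33, adjusted p = 0.00747) and had an adjusted p of 0.0505 without O3 48 hr replicate 2. Mt1 rose by 0.73, the zinc and iron importer Slc39a14 by 0.70 and the transferrin receptor Tfrc by 0.65. Tfrc kept the call without each array in turn, on 1 of its 6 probe sets, and was the member left without O3 48 hr replicate 2. Mt1 lost it without any of 3 arrays (adjusted p up to 0.0816, without O3 48 hr replicate 1) and Slc39a14 without any of 6 (up to 0.136, without replicate 3). Mt1 and Mt2 are close in sequence, so the split between them is uncertain. Mt2 stood at 10.86, 10.49 and 10.14 after 24 hr of O3 and at 9.72, 9.72 and 9.24 after 72 hr.

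Enzymes that act on foreign compounds mostly had changes below 0. Of 38, 3 fell and 2 rose, with a median of -0.18, and 30 had a change below 0, as did 6975 of all 12394 genes. Ephx1, microsomal epoxide hydrolase, was at 10.57, 10.83, 10.71 and 10.62 in air and at 10.26, 10.06 and 10.01 after O3 and fell by 0.57 (standard error 0.11, adjusted p = 0.00402). Gstm1 fell by 0.51 and Gstm2 by 0.43. Members of this glutathione transferase family are near-identical in sequence, so the split between them is uncertain. Without O3 48 hr replicate 3 the adjusted p was 0.246 for Gstm1, which was lost without any of 5 arrays, and 0.108 for Gstm2, and 1 of the 3 remained. Cyp7b1, an oxysterol hydroxylase, rose by 1.47 and Mgst3 by 0.80, the latter on 1 of 2 probe sets and lost without any of 6 arrays (adjusted p up to 0.117, without O3 48 hr replicate 3). Cyp1a1 had the largest drop in the list, -1.86 (standard error 0.75, adjusted p = 0.202), and its 4 air values of 8.03, 11.16, 8.30 and 6.47 overlapped those after O3 (7.11, 6.62 and 6.14).

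In the sterol synthesis list 7 of 20 genes rose and none fell, with a median of 0.55. Of the 20, 13 were above air on every O3 array, as were 8.92% of all genes. The largest rise was that of Ch25h, which makes 25-hydroxycholesterol from cholesterol and is not itself an enzyme of sterol synthesis. It lay between 6.41 and 6.84 in air and at 8.10, 8.31 and 7.75 after O3, a change of 1.47 (standard error 0.27, adjusted p = 0.00248). Cyp51, lanosterol demethylase, rose by 1.27, Fdps by 1.00, Msmo1 by 0.85, Sqle and Idi1 by 0.82 each and Lss by 0.65. The count was 4 without O3 48 hr replicate 1, 2 without replicate 3 and 1 against air of 24 hr alone. Without replicate 3 the adjusted p was 0.0713 for Cyp51, 0.07 for Fdps, 0.0896 for Lss and 0.07 for Idi1. Fdps was lost without O3 48 hr replicate 1 too, and Lss without any of 3 arrays. Msmo1 lost the call without any of the 7 arrays (up to 0.187, without replicate 1), while Ch25h and Sqle kept it.
Ribosome biogenesis genes rose in 9 of 29 (median 0.31). All 29 had a change above 0 and 22 had every O3 array above air, against 5414 and 1106 (8.92%) of all 12394 genes. Nop58, a core protein of small nucleolar particles, rose by 0.81, Nhp2 by 0.68, and Tsr1 and Nop56 by 0.55 each. Between 2 and 4 of the list remained without air 24 hr replicate 1, air 48 hr replicate 2 or any of the O3 arrays. Nop58 was lost without any of 5 arrays (adjusted p up to 0.146, without air 24 hr replicate 1) and Nhp2 without any of 3 (up to 0.0824, without O3 48 hr replicate 1). Tsr1 was lost without any of 4 (up to 0.183) and Nop56 without any of 6 (up to 0.328), both highest without O3 48 hr replicate 3.

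Of 31 heat shock and unfolded protein genes only the chaperonin Hspd1 passed, with a change of 0.67 (standard error 0.18, adjusted p = 0.0431) that was lost without any of the 7 arrays (adjusted p from 0.0526 to 0.233). The list median was 0.38. Hspa1a was spread over 8.10 to 10.23 in air and lay at 9.61 to 10.32 after O3 (adjusted p = 0.343). Of 28 immediate early genes 6 rose, with a median of 0.20. Besides Ccn1 these included Egr2 by 0.83, Junb by 0.81 and Egr1 by 0.80. Junb and Egr1 were each lost without any of 3 arrays (adjusted p up to 0.149 and 0.121, without O3 48 hr replicate 3), Egr2 had one of 0.0735 without replicate 2, and 2 of the 6 remained without replicate 3. Among 17 clock genes Bhlhe40 alone rose, by 1.11 (adjusted p = 0.0206), and lost the call without any of 3 arrays (up to 0.128, without O3 48 hr replicate 3). Lists of fatty acid metabolism (30 genes, median -0.07) and glucocorticoid targets (16 genes, median -0.07) had 0 and 2 calls. The 2 were Mt2 and Lcn2, and 8 fatty acid genes reached an unadjusted p under 0.05.

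**Figure D4:**
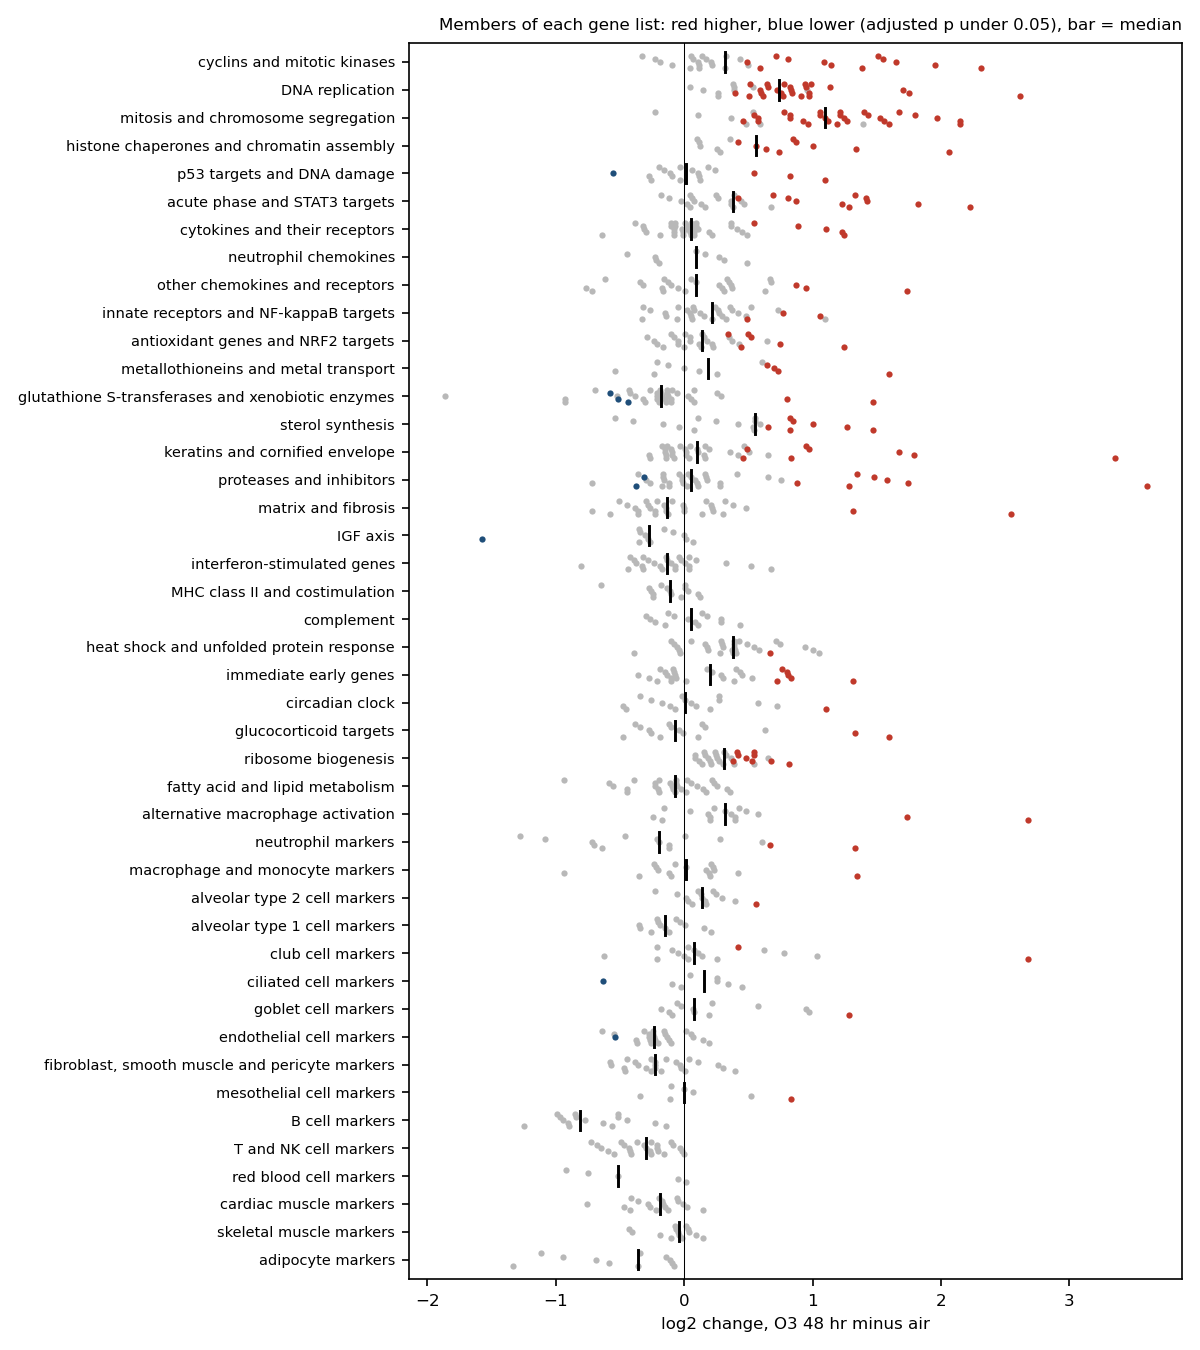
Each point is a measured member of 1 of 44 gene lists, placed at its log2 change after 48 hr of O3 against air; red and blue points passed limma's threshold as higher and lower, grey points did not, and the bar is the list's median. The cell division lists at the top lie to the right (medians 0.32 to 1.10), while B cell markers lie to the left (median -0.81) with no member past the threshold.

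The genes that fell were fewer and smaller in change, and 115 of the 124 were in none of the 44 lists. Igfbp3, which binds insulin-like growth factors in tissue fluid, was at 9.23, 8.97, 9.40 and 9.25 in air and at 7.93, 7.55 and 7.45 after O3. It fell by 1.57 (standard error 0.26, adjusted p = 0.000705), and was the only call among 12 genes of the IGF axis (median -0.27). Acaa1b, a peroxisomal thiolase of fatty acid oxidation, was at 7.27, 7.45, 7.71 and 6.45 in air and at 5.57, 5.74 and 5.75 after O3. It fell by 1.54 (standard error 0.33, adjusted p = 0.0104). Tril, an accessory protein of TLR4 signaling, fell by 1.37 (standard error 0.22, adjusted p = 0.00063), with both of its probe sets past the threshold. These were the 3 that fell over 2-fold. Air 48 hr replicate 2 was the lowest air array for Acaa1b and Tril.

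Bex2 fell by 0.91 (9.39, 9.76, 9.22 and 9.54 against 8.44, 8.79 and 8.47, adjusted p = 0.000551) and the bicarbonate cotransporter Slc4a5 by 0.76 (7.95 to 8.08 against 7.21, 7.15 and 7.35, adjusted p = 0.00186). Both kept the call without each array in turn, as did Igfbp3, Acaa1b and Tril. The next largest were Scube2 (-0.97), the TNF receptor family member Tnfrsf19 (-0.91), the basement membrane laminin Lama3 (-0.86), the cadherin Cdh13 (-0.79), Grtp1 (-0.77), the fatty acid transporter Slc27a3 (-0.76), the metalloproteinase Mmp11 (-0.72), the collagen processing enhancer Pcolce2 (-0.72), the TGF-beta pseudoreceptor Bambi (-0.67) and the transcriptional corepressor Runx1t1 (-0.67). These 10 lost the call without at least 1 array. Scube2 was lost without any of 5 arrays (adjusted p up to 0.151) and Grtp1 without any of 3 (up to 0.176), both highest without O3 48 hr replicate 3. Runx1t1 was lost without any of 6 (up to 0.134, without replicate 2) and Mmp11 without replicate 2 (0.0521). Without replicate 3 the adjusted p was 0.0933 for Tnfrsf19, 0.168 for Lama3, 0.0938 for Cdh13, 0.0683 for Slc27a3, 0.138 for Pcolce2 and 0.133 for Bambi. A second probe set of Cdh13 had a change of 0.00.

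Markers of the lung's own cells were present on all 7 arrays and mostly did not pass. Sftpc, the surfactant protein of type 2 cells, lay between 14.30 and 14.47 and Scgb1a1, the secretoglobin of club cells, between 14.13 and 14.34 over both groups, both near the highest value on any array (14.6). The mean level of 15 type 2 markers was 11.99 to 12.04 in air and 12.06 to 12.22 after O3, with Muc1 alone called (0.56, adjusted p = 0.0238), and lost without any of 4 arrays (up to 0.117, without O3 48 hr replicate 3). Type 1 markers had no call of 13 (median -0.15, 3 at an unadjusted p under 0.05, 6 with all O3 arrays below air). Among all genes 8.63% had every O3 array below air. Ager, the receptor that marks type 1 cells, was at 12.71 to 12.97 in air and at 12.63 to 12.79 after O3. Of 25 endothelial markers Emcn fell, by 0.54 (adjusted p = 0.0461), with a list median of -0.24, and lost the call without any of 5 arrays (up to 0.324, without O3 48 hr replicate 3). Of 8 ciliated cell markers 1 fell, and 5 had a change above 0, against 5414 of all 12394 genes (list median 0.15). The one that fell was Tppp3, a tubulin-binding protein, by 0.63 (adjusted p = 0.022), and it lost the call without any of 5 arrays (up to 0.12, without O3 48 hr replicate 3). The ciliary regulator Foxj1 had a change of 0.25 (adjusted p = 0.665). In whole tissue, fewer cells of a type and less RNA per cell cannot be told apart.

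The 16 B cell markers all had a change below 0 (median -0.81), as did 6975 of all 12394 genes. None of these markers passed, with 8 at an unadjusted p under 0.05. Their mean level was 7.35 to 7.75 in air and 7.19, 7.19 and 6.16 after O3, so O3 48 hr replicate 3 was the lowest array. Cd79a, part of the B cell receptor, was at 8.85 to 9.56 in air and at 8.96, 8.21 and 7.29 after O3. The 25 T and NK cell markers had a median of -0.30 and no call, with 8 at an unadjusted p under 0.05, and mean levels of 5.90 to 6.24 in air and 5.90, 5.84 and 5.42 after O3. Of 15 neutrophil markers Lcn2 and Hdc (0.67) rose and no other passed. The defining S100a8 was at 10.42, 10.04, 9.15 and 10.70 in air and at 10.09, 8.51 and 8.39 after O3 (change -1.08, adjusted p = 0.267), and S100a9 followed the same order. Lcn2 and Hdc are also made by epithelial and mast cells. Hdc had an adjusted p of 0.0616 without O3 48 hr replicate 3 and of 0.0553 without replicate 1. Among 17 macrophage and monocyte markers the cathepsin Ctsk alone rose, by 1.35 (adjusted p = 0.00169), with Cd68 at 8.84 to 8.95 in air and at 9.64, 9.10 and 8.57 after O3.

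Cardiac muscle markers (18 genes) had mean levels of 6.69, 6.94, 7.91 and 7.64 on the 4 air arrays and of 6.92, 6.89 and 7.42 after O3, with no call and 0 at an unadjusted p under 0.05. Adipocyte markers (11 genes) had mean levels of 6.15, 5.90, 7.10 and 6.50 in air and of 5.82, 5.91 and 5.92 after O3, with no call and 2 at an unadjusted p under 0.05. Air 48 hr replicate 1 was the highest array for both lists. Red blood cell (5), skeletal muscle (14) and fibroblast and smooth muscle markers (24) had no call. Their medians were -0.51, -0.04 and -0.22, and 1, 0 and 5 of them reached an unadjusted p under 0.05. Club, goblet and mesothelial lists had 2, 1 and 1 calls of 17, 13 and 7, all of genes named above (Retnla, Hp, Pigr and Krt19). The airway lists differed by duration within the air group. Mean levels in air of 24 and of 48 hr were 10.55 and 10.67 against 11.26 and 11.07 for club markers, 5.42 and 5.45 against 6.35 and 5.89 for goblet markers, and 8.16 and 8.26 against 8.67 and 8.76 for ciliated markers. After 48 hr of O3 they were 11.01 to 11.37, 5.73 to 6.28 and 8.29 to 8.81. The part of these marker shifts in the results above was not tested.

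Some genes that the study follows in its array results are not given above. Of these, Ctse (change -0.17), Nnt (-0.13), Pam (0.10) and Wdfy1 (0.27) overlapped between O3 and air. Limma's adjusted p ran from 0.632 (Wdfy1) to 0.925 (Pam). Standard errors were 0.46, 0.22, 0.35 and 0.24 in that order of genes, against a median of 0.125 over all genes. The spread behind them includes the Il10-/- arrays, among them the library labelled Il10-/- air 48 hr replicate 1 described below. Its part in these p-values was not tested.

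The same exposure in Il10-/- mice, measured on other arrays, gave changes of the same sign for 335 of the 336 higher and 123 of the 124 lower genes. Both comparisons came from the same fit and share its estimate of the spread, so their calls are not independent. The share of all genes with a matching sign was not counted. The exceptions were Hspd1 (-0.11 in Il10-/- lung) and Pank1 (0.03, against -0.67 in Il10+/+ lung), both lost as calls without any of the 7 Il10+/+ arrays (Pank1 with an adjusted p up to 0.168, without O3 48 hr replicate 1). In Il10-/- lung 501 genes (4.04%) rose and 284 (2.29%) fell against its own air. Of the 336, 278 rose there too, which is 82.7% of these and 55.5% of the Il10-/- list. Of the 124, 78 fell there too (62.9% and 27.5%). The library labelled Il10-/- air 48 hr replicate 1 had an Il10 value of 3.87, as on Il10+/+ arrays, against 6.29 to 6.72 on the other Il10-/- air arrays. Without it 358 genes rose and 176 fell in Il10-/- lung, 240 and 60 of the calls were shared, and the counts of matching sign were 335 and 123 again, with Hspd1 (-0.22) and Bcl11a (0.02, against -0.40 in Il10+/+ lung) as the exceptions and Pank1 at -0.11. Bcl11a was lost as a call without any of 5 Il10+/+ arrays (adjusted p up to 0.365, without O3 48 hr replicate 3).

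The difference between genotypes in the 48 hr change was tested directly. In that test limma called 0 of 12394 genes (lowest adjusted p = 1), with 272 at an unadjusted p under 0.05. That share of all genes is itself under 0.05, and a lack of calls does not show that the genotypes changed alike. An ordinary analysis of variance at an unadjusted p of 0.01 gave 49. Without the library labelled Il10-/- air 48 hr replicate 1, Chil1 alone passed. The gap was widest at Saa3, which rose by 4.43 in Il10-/- and by 2.23 in Il10+/+ lung. That difference of 2.21 (standard error 0.65) had an unadjusted p of 0.00258 and an adjusted p of 1. For Lcn2 the difference was 0.89 (standard error 0.30), for Thbs1 -0.88 (standard error 0.33) and for Hspd1 -0.78 (standard error 0.26), each with an adjusted p of 1. Timp1 had changes of 3.60 and 3.62. Median changes of the 3 lists of mitosis, replication and acute phase genes were 1.10, 0.74 and 0.38 in Il10+/+ lung and 1.39, 0.94 and 0.55 in Il10-/- lung. For heat shock and unfolded protein genes they were 0.38 and -0.11, and 4 of the 31 fell in Il10-/- lung. That list difference was not tested.

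**Figure D5:**
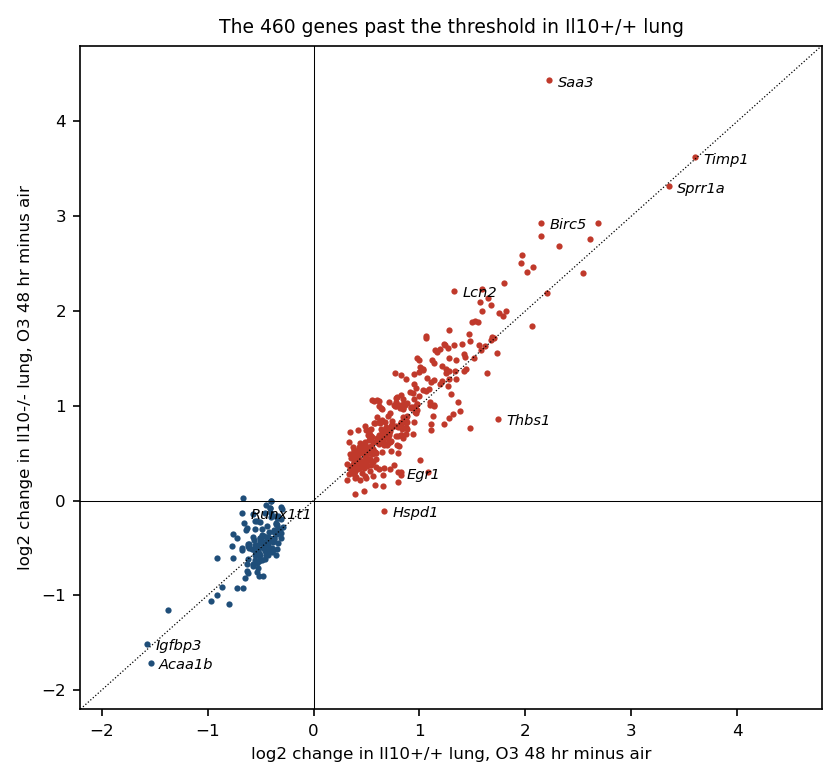
The 460 genes called in Il10+/+ lung are placed by their log2 change after 48 hr of O3 against air in Il10+/+ lung (x axis) and in Il10-/- lung (y axis); red rose and blue fell in Il10+/+ lung, and the dotted line marks equal changes. Of the 460, 458 lie in quadrants of equal sign, and Saa3 lies farthest above the line.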

How the data were processed

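Total RNA of the left lung was hybridized to Affymetrix mouse 430A arrays. The deposited values are log2 intensities per probe set that the authors made with RMA (background correction, quantile normalization and summary over probes). The version is not given in the sources used here. Of 22690 probe sets, 20393 carry 1 gene symbol in the platform annotation, 691 several and 1606 none. For each of the 12394 genes the probe set with the highest mean was used, and a match of gene IDs to RefSeq changed no symbol. limma 3.58.1 (R 4.3.3) fitted group means to 25 arrays, with the air arrays of both times pooled within a genotype, with Benjamini-Hochberg adjusted p-values over all genes (threshold 0.05). The fit was run on simulated data with independent normal noise and no outlying array. That run cannot show how arrays that stand apart affect the calls. Array medians lay between 6.54 and 6.68, and the number of arrays limits the precision. Genes were named by rule: the 15 largest higher and 15 largest lower calls without overlap, the 4 largest calls of each of 44 lists, defining markers of lists with no call, and array genes the study follows. Other list members and genes are named to complete a list or after their values were seen. Members and lists were chosen with earlier results of these data known. Alternatives covered the arrays fitted, air duration, replicate numbers as a block, array weights, variance options, probe set summary, low values, centring, a fold minimum and analysis of variance.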

Additional observations from a re-analysis of the deposited data

Results flagged for a closer look

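Among the 4 air arrays, single values stood apart from the other 3 by Dixon's test in 7 cases out of 111 genes and 44 list means examined, and chance marks about 1 group in 20. Air 48 hr replicate 2 was the lowest air array for Timp1 (6.66, next 7.26), for Bambi (8.09, next 8.54) and for the mean level of sterol synthesis genes (8.08, next 8.18), and the highest for Gadd45g (8.29, next 7.92). Air 24 hr replicate 1 was the lowest for Cd14 (8.53, next 8.94). Air 24 hr replicate 2 was the highest for Tk1 (5.48, next 5.13). Air 48 hr replicate 1 was the highest for the mean level of fatty acid and lipid metabolism genes (9.44, next 9.25). For Timp1, Bambi, Gadd45g, Cd14, Tk1 and the sterol mean, every O3 48 hr array lay outside the range of the air arrays. The fatty acid mean after O3 (9.32, 9.17 and 9.07) overlapped that range.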

How the results depend on the processing

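The 336 higher and 124 lower genes, and the 110 called between 48 and 24 hr of O3, stayed within 1.5 times of these numbers under an intensity trend, a robust fit, median centring, the mean of probe sets and analysis of variance with Benjamini-Hochberg adjustment, and with the arrays compared alone. Over all 26 arrays 6 were higher and 0 lower, with 0 between 48 and 24 hr and 1077 genes against air at an unadjusted p under 0.05. The 13 Il10+/+ arrays gave 504 higher, 243 lower and 169 between times. Against air of 48 hr alone 154 were higher and 28 lower (84.6% higher, against 73.0%), and against air of 24 hr alone 145 and 27 (84.3%). Array weights gave 1060 and 998 (51.5% higher), 427 between 48 and 24 hr, 2 between 72 and 48 hr and 1 between genotypes. Analysis of variance at an unadjusted p of 0.01 gave 530 and 331 (61.6% higher), 431, 43 and 49 for the same comparisons. Without the genes of lowest level (a fraction of 0.3333) 72 were called between 48 and 24 hr. A 2-fold minimum left 96, 3 (97.0% higher) and 52. The cause of these shifts was not tested, other than where fewer genes or arrays entered.

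Each comparison was refitted without each array of its own groups in turn, and without Il10-/- O3 24 hr replicate 1 or 3. The other arrays of the fit were not left out. These refits gave 148 to 495 higher, 23 to 219 lower and 59 to 171 between 48 and 24 hr. They gave 0 between 72 and 48 hr, and 0 to 1 between genotypes. The upper ends of the higher, lower and 48 against 24 hr counts came without Il10-/- O3 24 hr replicate 1 or 3. With replicate 2 already out, either refit left 1 array in that group. A single array adds nothing to the spread, so these refits gave the same counts and are not separate checks. Those alternatives were chosen after seeing the data. Replicate numbers were not taken as pairs, since the labels tie them to nothing and not every same-numbered pair deviated together: the correlation was -0.051 between air of 24 and 48 hr, and 0.102 to 0.261 between air and O3 48 hr. With the replicate number as a block 363 were higher, 135 lower and 124 called between 48 and 24 hr.

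Signs were followed under the alternatives for 111 named genes, of which 98 passed. Among these, signs turned only in genes that did not pass. Against air of 48 hr alone the changes were 0.011 for Ctse, -0.034 for Il10 and -0.046 for Tnf. The mean of probe sets gave 0.088 for Ctse, array weights gave -0.094 for Pam and the block gave -0.00053 for Tnf. Leaving out 1 array gave -0.0485 to 0.106 for Tnf, -0.0374 to 0.222 for Pam, -0.051 to 0.0304 for Il1a and -0.0387 to 0.0911 for Nos2.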

Other observations

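Of the 460 genes called at 48 hr, 298 were in none of the lists (183 higher, 115 lower), and the following were named after their values were seen. Pgk1, phosphoglycerate kinase, rose by 0.61 (standard error 0.09, limma adjusted p = 0.000351) and was 1 of the 6 genes called over all 26 arrays. Gapdh, often used as a reference gene, rose by 0.44 (adjusted p = 0.00673). Ldha rose by 0.52, with an adjusted p of 0.103 without O3 48 hr replicate 3 and a call lost without air 24 hr replicate 1 as well. Psat1, an enzyme of serine synthesis, rose by 1.44 (adjusted p = 0.00187) and Ctps, which makes CTP, by 1.19 (adjusted p = 0.00026).

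Tnfsf9, the ligand of 4-1BB, rose by 1.64 (adjusted p = 2.44e-05), the endocytic receptor Lrp2 by 1.62 (adjusted p = 0.000522) and Sfn, an epithelial 14-3-3 protein, by 1.30 (adjusted p = 0.000926). The clotting factor F7, the partner of tissue factor, rose by 0.94 (adjusted p = 0.0106, and 0.0767 without O3 48 hr replicate 1). Among the lower genes, Notum, an extracellular inhibitor of Wnt ligands, fell by 0.51 (adjusted p = 0.00113) and the sterol hydroxylase Cyp27a1 by 0.62 (adjusted p = 0.00187), and both kept the call without each of the 7 arrays. Gas6, a ligand of the TAM receptors, fell by 0.63 (adjusted p = 0.0507 without O3 48 hr replicate 2), and Fgf1 by 0.49 (adjusted p = 0.0627 without replicate 3).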
